A study of Mus musculus with 6 samples.

Results

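Chemokines are small secreted proteins that guide leukocytes, and their receptors are the membrane proteins that bind them. The 42 members described here are the genes of the expression table whose symbols follow the Ccl, Cxcl, Ccr and Cxcr naming schemes, together with Cx3cl1, Cx3cr1 and Ackr3. They are 30 ligands and 12 receptors among 22281 gene rows in all. The study profiled dissociated adult mouse hearts with Drop-seq, which captures single cells in droplets and counts the 3′ ends of their transcripts as unique molecular identifiers (UMIs). Control hearts carried Myh6-MCM, a Cre recombinase that is expressed from a cardiomyocyte promoter and becomes active with tamoxifen. YAP5SA hearts (Yap5SA+/tg; Myh6-MCM) carried in addition a transgene for YAP5SA, a form of the transcriptional coactivator YAP that the kinases Lats1/2 cannot phosphorylate. Mice of both genotypes received tamoxifen, so both carried an active Cre, and the transgene was switched on in cardiomyocytes only. Each genotype had 2 libraries of dissociated cardiac tissue and 1 of enriched cardiomyocytes, made from the cells that settled by gravity. They are called Control tissue-2, tissue-3 and enriched, and YAP5SA tissue-1, tissue-2 and enriched. The labels do not say whether libraries came from separate animals, so p-values measure only the spread between these libraries, which may be technical.

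Ligands of the CC family act mainly on monocytes, macrophages and lymphocytes: Ccl2, Ccl7 and Ccl12 signal through Ccr2, and Ccl6 and Ccl9 through Ccr1. The CXC ligands Cxcl1 and Cxcl2 recruit neutrophils through Cxcr2, while Cxcl12 acts on Cxcr4 and is taken up by the scavenger receptor Ackr3. In the heart, resident macrophages are marked by Cx3cr1, the receptor for the membrane-bound ligand Cx3cl1, and recruited monocytes by Ccr2.

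The 6 libraries held 21706 cells, from 1405 to 5860 per library, with 3382656 to 13483791 UMIs each. No library shared more than 2 cell barcodes with another. Levels are given as CPM, the UMI count of a gene scaled to a fixed library total of 1000000. Members together made up 217 CPM of the Control enriched library, 3418 of tissue-2 and 1180.2 of tissue-3, whereas the YAP5SA libraries had 10196 (tissue-1), 8705 (tissue-2) and 5408 (enriched). The cell makeup differed too: the Control libraries held 0, 601 and 148 macrophages and the YAP5SA libraries 1818, 3110 and 1827. All further values are therefore given within 1 cell class or cluster, named by the authors' annotation, as CPM of that class in that library. The summed cardiomyocyte marker list reached 53224–81343 CPM in Control and 25611–35554 CPM in YAP5SA cardiomyocytes, and the macrophage list 17886–34232 and 22172–23400.3 CPM in macrophages. Mouse Yap1 stood at 15.3, 17.9 and 14.8 CPM in Control cardiomyocytes (enriched, tissue-2, tissue-3) and at 52.9, 46.0 and 24.6 CPM in YAP5SA cardiomyocytes (tissue-1, tissue-2, enriched); whether these UMIs came from the transgene was not tested. Library values below are always listed in those 2 orders. The Control enriched library had no macrophages or monocytes and 10 fibroblasts.

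The highest levels of the family lay in macrophages and monocytes. Over all libraries with enough cells, Ccl2 averaged 3451 CPM in macrophages, Ccl12 2834 and Ccl7 2538, while Ccl6 led in monocytes at 2668 CPM. Fibroblasts led for Cxcl14, Cxcl1, Ccl11 and Cxcl5, endothelial cells for Cxcl12 at 715 CPM, and endocardial cells for Ackr3 at 317 CPM. Among receptors, Ccr2 led in monocytes at 1052 CPM and Cx3cr1 averaged 280.4 CPM in macrophages. Neighbours in these orders were often close: Ccr1 averaged 251 CPM in monocytes and 247 in macrophages, within the spread of the libraries. These means compare 1 gene across classes; levels of different genes are not compared per transcript length here.

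**Figure D1:**
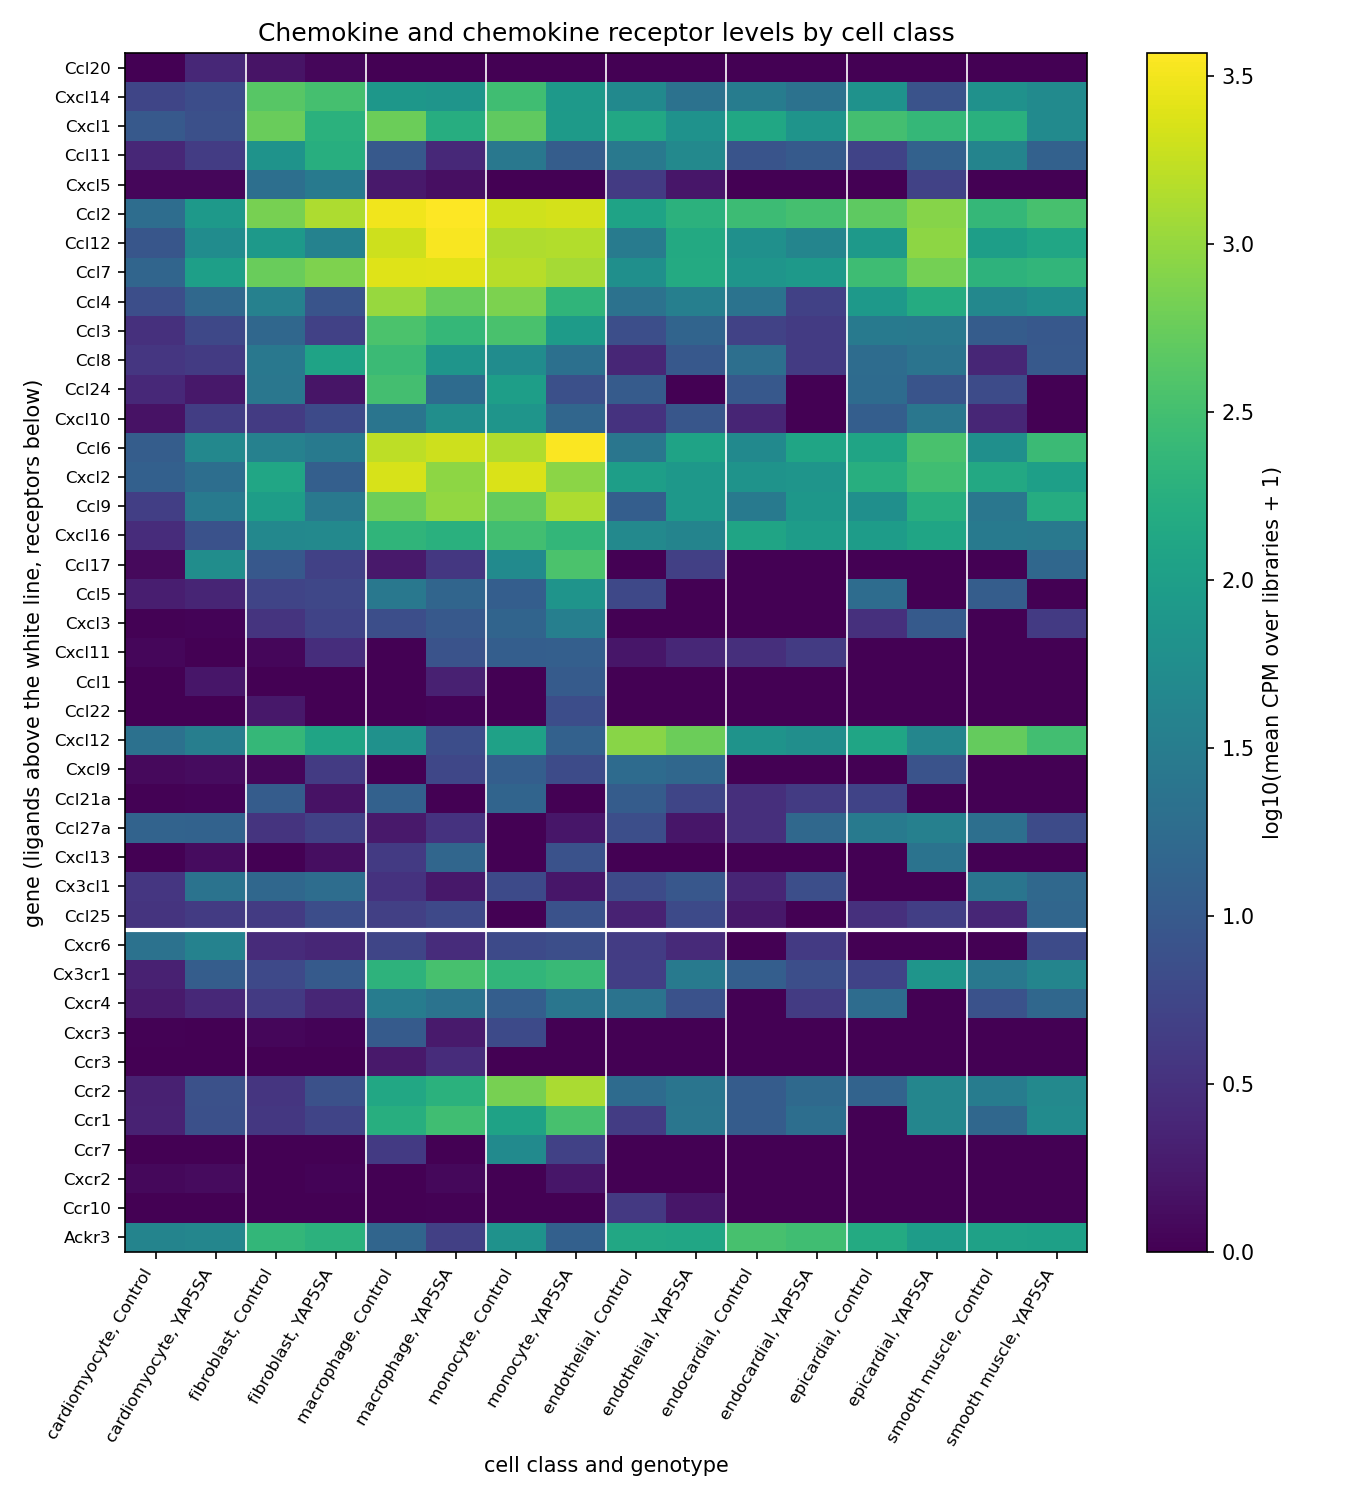
Mean level of each of 41 members in 8 cell classes, Control beside YAP5SA, as log10(mean CPM over libraries + 1); ligands stand above the white line and receptors below it. Among the brightest cells are Ccl2, Ccl12, Ccl7, Ccl6 and Cxcl2 in macrophages and monocytes, Ccl17 is bright in monocytes and in YAP5SA cardiomyocytes, and Cxcl12 is brightest in endothelial cells.

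Counts were summed per library and compared between genotypes with edgeR's quasi-likelihood test, with Benjamini-Hochberg adjustment over all genes of each fit and a threshold of 0.05. Over 8 class fits, 108 member tests gave 6 calls, 5 higher and 1 lower in YAP5SA. Of all 47116 gene tests in those fits, 6.65% were called, so the members' share of calls lies near the background. An unadjusted p under 0.05 was reached by 27 of the member tests. In cardiomyocytes 7 of 17 members reached it, beside 4458 of 10875 genes, and in fibroblasts 4 of 21, beside 849 of 10717. The other classes are given with their counts below. Over clusters, 184 member tests gave 6 calls, 4 higher and 2 lower, beside a background of 1.2% of 84307 tests. A total of 33 members were tested in at least 1 class. The 9 never tested were Ccl1, Ccl20, Ccl21a, Ccl22, Ccr10, Ccr3, Ccr7, Cxcr2 and Cxcr3, with 4 to 51 UMIs in all libraries together.

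In cardiomyocytes, 4 ligands and 1 receptor rose in YAP5SA hearts and no member fell. They were Ccl17, which attracts T cells through Ccr4, the fractalkine ligand Cx3cl1 and its receptor Cx3cr1, the Ccr1 ligand Ccl9 and the monocyte attractant Ccl2. Ccl17 stood apart: 3 UMIs were counted in all Control cardiomyocytes and 326 in 1629 YAP5SA cardiomyocytes. These are 5 of 17 members tested, or 29.4%, and all 5 were higher in YAP5SA. Of all 10875 genes tested in cardiomyocytes 26.6% were called in either direction, near the members' share. Those called higher were 14.0% of all genes, below the members' share. The median change of the 17 members was 0.80 on the log2 scale, beside 0.04 for all genes. In 9 of the 17 all YAP5SA libraries lay above all Control libraries, beside 50.5% of all genes. Scaling by library totals alone moved the median of all genes in cardiomyocytes to 0.88 and that of the members to 1.67.

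Ccl17 was counted at 0, 0.588 and 0.137 CPM in the 3 Control libraries and at 69.8, 52.4 and 42.0 CPM in the 3 YAP5SA libraries. All YAP5SA libraries were high, the enriched one included, and the groups did not overlap. The log2 change was 6.94 (SE 0.55), with an adjusted p of 0.00214 in edgeR's quasi-likelihood test, and the ratio of the pooled UMIs was 219, with a 95% counting interval of 74.2 to 1067. Under all 15 alternative settings it stayed past the threshold, with log2 changes from 6.51 to 7.79 and adjusted p up to 0.0292. Not all of these settings are distinct. Each library had 282 or more cardiomyocytes, so asking for at least 30 cells repeated the fits without that demand. The gene was found in 189 of the 1629 YAP5SA cardiomyocytes, 125 of which had 1 UMI, and the most in 1 cell was 13. After each cell was thinned to 1000 UMIs, a Ccl17 UMI was present in 0 of 1049, 0 of 560 and 0 of 1156 Control cardiomyocytes, which allows shares of up to 0.286%, 0.536% and 0.260%. In the YAP5SA libraries the thinned shares were 5.90%, 2.45% and 3.94% (exact 95% intervals 3.48–9.28%, 0.904–5.25% and 2.76–5.44%). Macrophages of the same 3 libraries, a class at low Ccl17, gave 0.363%, 0.272% and 0.0792%. Before thinning, the cardiomyocyte shares were 12.5%, 14.2% and 10.6%, at median depths of 1876, 2680 and 2698 UMIs per cell, and the macrophage shares 0.495%, 0.643% and 0.164% at 1366, 1830 and 1213 UMIs. Intervals of this kind cover counting error only.

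Cx3cl1 was counted at 0.694, 6.17 and 1.09 CPM in Control and 26.4, 22.2 and 16 CPM in YAP5SA cardiomyocytes. The groups did not overlap, and the highest Control library was tissue-2. Its log2 change was 2.43 (SE 0.62, adjusted p 0.0277 in edgeR's quasi-likelihood test). The receptor Cx3cr1 stood at 0, 2.35 and 0.957 CPM in Control and 10.4, 11.9 and 8.35 CPM in YAP5SA, a change of 2.53 (SE 0.71, edgeR adjusted p 0.0373) that rests on 15 Control and 63 YAP5SA UMIs. In the GENCODE vM21 annotation it overlaps Csrnp1, Gorasp1 and Xirp1 on the same strand, and Csrnp1 itself rose by 1.92 (edgeR adjusted p 0.0128), so its count is uncertain.

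Ccl9 was counted at 1.04, 6.76 and 3.01 CPM in Control and 16, 43.6 and 23.5 CPM in YAP5SA (log2 change 2.28, SE 0.57, edgeR adjusted p 0.0262). Ccl2 stood at 1.74, 32.3 and 18.9 CPM in Control and 92.5, 119 and 45.1 CPM in YAP5SA (1.87, SE 0.53, edgeR adjusted p 0.0395). For both genes the groups did not overlap, and the Control enriched library was the lowest of all 6. The neighbours of Ccl2 in the same gene cluster, the Ccr2 ligands Ccl7 and Ccl12, did not pass: Ccl7 stood at 0, 27.6 and 13.5 CPM and 126, 109 and 69.0 CPM (2.64, SE 0.90, edgeR adjusted p 0.071), and Ccl12 at 0.347, 14.1 and 9.85 CPM and 40.6, 74.6 and 46.7 CPM (2.27, SE 0.76, edgeR adjusted p 0.068). Ccl6, a Ccr1 ligand, also missed the threshold at 1.79 (SE 0.75, edgeR adjusted p 0.12), and DESeq2 called both Ccl12 (adjusted p 0.00632) and Ccl6 (adjusted p 0.0396). Further members that did not pass were Cxcl12, at 15.6, 26.4 and 20.2 CPM and 31.1, 21.4 and 45.1 CPM (−0.20, SE 0.39), and Ackr3, at 52.8, 12.3 and 54.8 CPM and 43.4, 46.0 and 38.1 CPM (−0.83, SE 0.60); for both the groups overlapped.

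**Figure D2:**
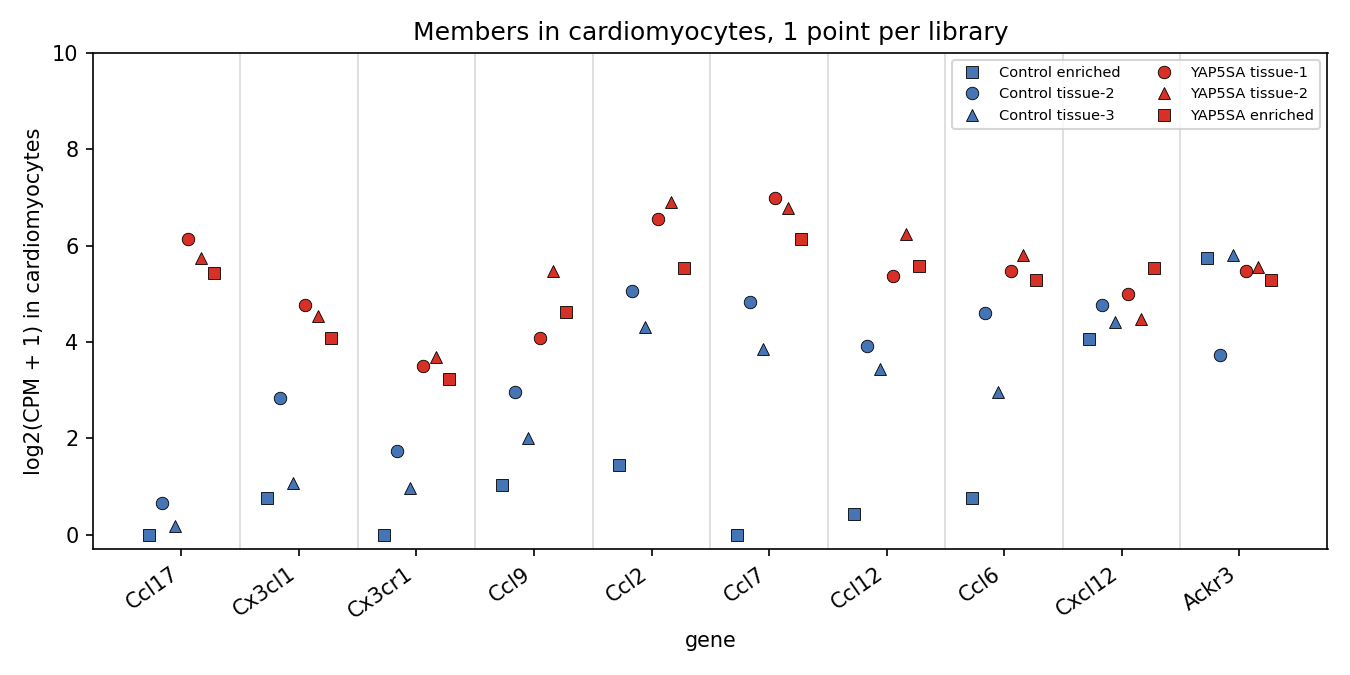
Level of 10 members in cardiomyocytes as log2(CPM + 1), 1 point per library; blue marks Control, red YAP5SA, squares the enriched libraries. Ccl17 lies below 1 CPM in every Control library and between 42.0 and 69.8 CPM in the YAP5SA libraries, while Cxcl12 and Ackr3 overlap.

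The calls for Cx3cl1, Cx3cr1, Ccl9 and Ccl2 depended on which libraries were included. Without the Control enriched, Control tissue-3, YAP5SA tissue-2 or YAP5SA enriched library, Ccl9 had adjusted p of 0.0924, 0.0803, 0.177 and 0.0957 (edgeR). Without the Control enriched, Control tissue-3, YAP5SA tissue-1, YAP5SA tissue-2 or YAP5SA enriched library, the edgeR adjusted p was 0.0988, 0.0684, 0.101, 0.117 and 0.106 for Cx3cl1, 0.0756, 0.109, 0.108, 0.156 and 0.0772 for Cx3cr1, and 0.0639, 0.0915, 0.076, 0.148 and 0.0634 for Ccl2. With the tissue libraries alone the edgeR adjusted p was 0.0899 for Ccl9, 0.0993 for Cx3cl1, 0.0634 for Cx3cr1 and 0.0584 for Ccl2. Unmerged names gave 0.0576 for Cx3cr1 and 0.0589 for Ccl2, and dropping the preparation term 0.169 for Ccl2 (edgeR). The number of members called in cardiomyocytes was 1 of 22 without Control tissue-3 (beside 14.0% of all genes in that fit), 1 of 20 without YAP5SA tissue-2 (1.71%), 2 of 25 without Control enriched (13.3%), 2 of 25 without YAP5SA tissue-1 (4.53%) and 2 of 19 without YAP5SA enriched (14.3%). Without Control tissue-2 it was 10 of 22, beside 39.8% of all genes.

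Macrophage transcripts moved with these genes. The 12 macrophage markers summed to 22.2–277 CPM in Control and 387–958 CPM in YAP5SA cardiomyocytes, with 2 of the 9 tested called higher, and in every library 9 or more of the 12 had a UMI; Timd4 was at 0 in 4 of the 6 libraries. Markers of some other classes were higher in YAP5SA cardiomyocytes too, without overlap. The smooth muscle list went from 36.8–297 to 2953–3472 CPM (3 of 5 tested called higher). The epicardial list went from 2.06–4.10 to 37.0–72.7 CPM (3 of 3) and the endocardial list from 9.72–14.9 to 48.1–70.6 CPM (2 of 2). Other lists overlapped: fibroblast markers at 142–661 and 615–804 CPM (0 of 9 called) and endothelial markers at 261–414 and 323–786 CPM (0 of 7). The B cell, T or NK cell and neutrophil lists overlapped as well. Of the 8 cardiomyocyte markers 5 were called lower. As a share of the level in macrophages of the same library, the marker list in cardiomyocytes reached 0.808% and 0.837% in the 2 Control tissue libraries, and 1.75%, 4.16% and 2.14% in the YAP5SA libraries. Ccl2 reached 0.961% and 0.677% in Control and 1.90%, 4.03% and 1.37% in YAP5SA, and Ccl9 0.854% and 0.752%, then 1.82%, 4.46% and 2.11%. Cx3cr1 reached 0.953% and 0.617%, then 2.61%, 4.09% and 2.68%. For Ccl2, Ccl9 and Cx3cr1 the share thus varied from library to library alongside that of the markers; the part of macrophage RNA in their change was not tested. Ccl7 lay above the marker share in each YAP5SA library, at 3.86%, 5.10% and 3.05%.

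Ccl17 and Cx3cl1 lay above the macrophage level in YAP5SA cardiomyocytes. Cardiomyocyte Ccl17 was 1898%, 1442% and 3700% of the macrophage level in the YAP5SA libraries, and Cx3cl1 was 1975% and 2937% in tissue-1 and tissue-2, against few macrophage UMIs. Averaged over the libraries of both genotypes, Cx3cl1 was highest in smooth muscle cells (19.1 CPM) and fibroblasts (16.2 CPM). As a share of the fibroblast level, cardiomyocyte Cx3cl1 was 16% and 23.9% in the Control tissue libraries and 150.4%, 161% and 70.0% in YAP5SA, where the fibroblast marker list gave 0.727%, 1.36%, 1.44%, 1.89% and 1.86%. Smooth muscle cells held Cx3cl1 at 22.2, 22.1 and 25.2 CPM in Control and 26.9, 0 and 18.2 CPM in YAP5SA, from 11 UMIs in all, and the part of smooth muscle transcripts in cardiomyocyte Cx3cl1 was not tested. Monocytes held more Ccl17: as a share of their level, cardiomyocyte Ccl17 reached 0.786% and 0.525% in the Control tissue libraries and 53.1%, 6.60% and 26.3% in YAP5SA. The 6 monocyte markers, of which Ccr2 is a member here, gave 1.25%, 1.77%, 2.60%, 4.42% and 2.79% on the same scale, so in YAP5SA tissue-2 the Ccl17 share stood closest to that of the markers. The dendritic cell markers summed to 1.18–2.46 CPM in Control and 12–16 CPM in YAP5SA cardiomyocytes, where Ccr7 was at 0 in every library; 1 of 1 tested was called higher. When only cardiomyocytes lacking all 22 markers of macrophages and fibroblasts were kept, Ccl17 had 0 UMIs in the 919, 141 and 341 Control cells and 10, 0 and 38 UMIs in 83, 27 and 409 YAP5SA cells. In those cells 5 members could be tested, of which Ccl7 was called (3.51, SE 0.70, edgeR adjusted p 0.00766), beside 16% of all genes, and Ccl2 missed the threshold (2.26, adjusted p 0.0673). Doublets had not been marked, and their part was not tested.

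**Figure D3:**
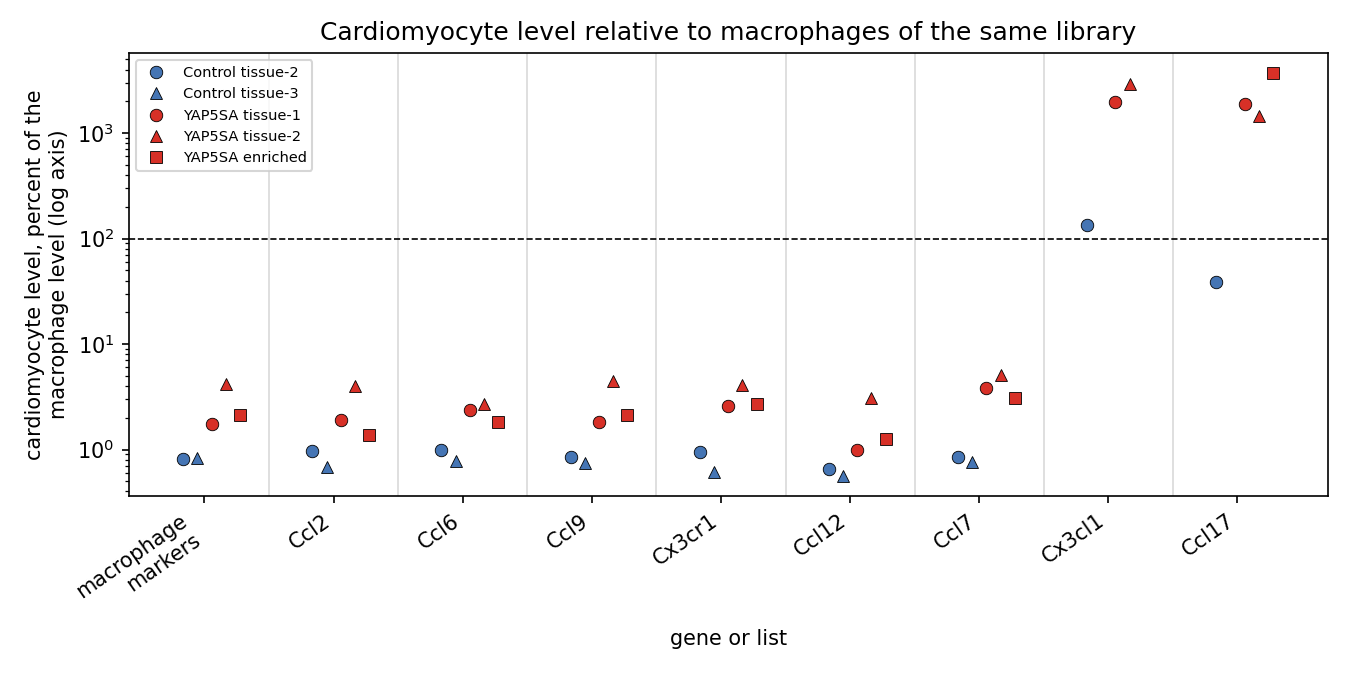
Level in cardiomyocytes as a percent of the level in macrophages of the same library, on a log axis, for the summed macrophage markers and 8 members, 1 point per library; the dashed line marks equal levels. Ccl2, Ccl6, Ccl9, Cx3cr1, Ccl12 and Ccl7 lie between 0.559% and 5.10% like the markers, while Ccl17 and Cx3cl1 lie above 1000% in the YAP5SA libraries shown; libraries with 0 macrophage UMIs of a gene have no point.

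Among cardiomyocyte clusters the Ccl17 UMIs lay mostly in YAP5SAcm, the cluster that the authors named after the transgene and that held 16, 50 and 33 Control cells and 212, 203 and 481 YAP5SA cells. There, Ccl17 stood at 0, 6.84 and 0 CPM and 85.8, 65.1 and 71.3 CPM (log2 change 3.92, SE 1.03, edgeR adjusted p 0.0101), with 1 Control UMI against 290 and a ratio of 18.7 (95% counting interval 3.32–739). Of 10 members tested in this cluster 3 rose, beside 5.08% of its genes, and their median change was 1.69, beside 0.16. Ccl6 had 0 UMIs among 257068 in Control and 187 in YAP5SA cells, which makes it higher by at least 4.01-fold, taking 3 counts over the Control cells as the floor (edgeR adjusted p 0.00949). Ccl2 stood at 0, 6.84 and 23.9 CPM and 83.1, 116 and 61.8 CPM (2.70, SE 0.77, edgeR adjusted p 0.0207), from 3 and 314 UMIs. Cx3cl1 went from 0 to 111 UMIs, at least 2.38-fold, without passing (edgeR adjusted p 0.058). Macrophage markers summed to 259, 451 and 704 CPM in the Control and 434, 1012 and 628 CPM in the YAP5SA cells of this cluster, so here the groups overlapped. Ccl17 missed the threshold without Control tissue-3 (adjusted p 0.0668) or YAP5SA tissue-2 (0.352), Ccl2 without Control enriched (0.058), Control tissue-2 (0.207) or YAP5SA enriched (0.109), and Ccl6 without Control tissue-2 (0.094), all by edgeR. With the tissue libraries alone the edgeR adjusted p was 0.071 for Ccl17, 0.0983 for Ccl2 and 0.0737 for Ccl6. Asking for at least 30 cells per library also lost Ccl2 (0.058, or 0.0834 without the preparation term, edgeR). Outside YAP5SAcm, Ccl17 had 0 Control and 13 YAP5SA UMIs in CM1, at least 25.3-fold higher by that floor, 0 and 6 in CM3, and 2 and 17 in CM2.

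Ccl17 and Cx3cl1 lie in 1 group with Ccl22 on chromosome 8, and both rose in cardiomyocytes. Ccl22 had 16 UMIs in all and was not tested. The 250 bases before their RefSeq starts (GRCm38.p6, both on the + strand) are shown because YAP acts on promoters through TEAD factors, whose core motif is GGAATG; the capitals mark a match on either strand, which reads CATTCC on the other.
Ccl17, chr8:94810203-94810452: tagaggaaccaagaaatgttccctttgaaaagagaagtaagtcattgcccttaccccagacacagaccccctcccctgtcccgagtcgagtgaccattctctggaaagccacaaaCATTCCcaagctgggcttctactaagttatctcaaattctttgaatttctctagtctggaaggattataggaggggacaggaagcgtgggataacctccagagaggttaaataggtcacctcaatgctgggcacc
Cx3cl1, chr8:94771930-94772179: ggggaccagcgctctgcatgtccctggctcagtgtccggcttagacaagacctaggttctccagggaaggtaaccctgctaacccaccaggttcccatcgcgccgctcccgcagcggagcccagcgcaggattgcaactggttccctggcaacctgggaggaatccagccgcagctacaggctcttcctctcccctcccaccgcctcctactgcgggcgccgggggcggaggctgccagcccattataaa
The Ccl17 window held 1 match and the Cx3cl1 window none. Of all 32851 promoter windows of this length 12.6% held the motif, and of the 33 windows of 30 members 15.2%, so a match is a description of these letters only.

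In fibroblasts, 1 of 21 members tested passed, and it fell: Ccl9. Of all 10717 genes tested in fibroblasts 2.21% were called and 0.765% were called lower. The members' median change was −0.20, beside 0.09 for all genes. Fibroblasts were the main site of Cxcl14, Ccl11 and Cxcl5, which attract monocytes, eosinophils and neutrophils, and a large source of Ccl2 and Ccl7.

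Ccl9 was counted at 0, 217 and 73.1 CPM in Control fibroblasts and 13.2, 34.9 and 31.0 CPM in YAP5SA fibroblasts. Both Control tissue libraries were above all YAP5SA libraries, while the Control enriched library, with 10 cells, held no UMI. The log2 change was −2.27 (SE 0.58, edgeR adjusted p 0.00994). In macrophages, Ccl9 stood at 791 and 399.9 CPM and 882, 979 and 1112 CPM (0.50, SE 0.41, edgeR adjusted p 0.76), and in monocytes at 875 and 182 CPM and 1115, 1492 and 1467 CPM (1.18, SE 0.61, adjusted p 0.69). The genotype effect in fibroblasts was lower than that in macrophages by a tested difference of −3.22 (SE 0.42, edgeR adjusted p 0.0207). It came from its own fit without Control enriched and is not the gap between the 2 changes above. Ccl9 was the only call among 32 members, beside 0.0456% of 13164 genes. Without YAP5SA tissue-1 the difference was −2.63 (edgeR adjusted p 0.124). The call within fibroblasts was lost without Control enriched (edgeR adjusted p 0.626), YAP5SA tissue-1 (1), YAP5SA tissue-2 (1) or YAP5SA enriched (0.606), and with DESeq2 (0.654). Of all 15 alternatives it held in 3, the others being lost at adjusted p from 0.0556, with RLE size factors, upwards. Fibroblast Ccl9 as a share of the macrophage level was 27.5% and 18.3% in the 2 Control tissue libraries and 1.49%, 3.56% and 2.79% in YAP5SA. The macrophage marker list gave 0.598%, 12.3%, 1.23%, 2.03% and 1.51%. Against monocytes, Ccl9 reached 24.8% and 40.1% in Control and 1.18%, 2.34% and 2.12% in YAP5SA, and the monocyte marker list 48.0% and 47.1%, then 19.3%, 18.5% and 15.6%. Ccr2, a marker of that list, reached only 0.481% and 0.974% in Control and 0.417%, 0.672% and 0.475% in YAP5SA. Ccr2 thus stood far below the sum of the list, and the shares of its other markers are not given here. Of the list, 5 genes were tested in fibroblasts by edgeR, of which 1 was called higher in YAP5SA and 0 lower. Cardiomyocyte markers in fibroblasts summed to 1835–30384 CPM in Control and 538–1970.4 CPM in YAP5SA (5 of 8 called lower), and endothelial markers to 101–1117 and 83.3–169.9 CPM (2 of 4 called lower). The part of other cells' RNA in fibroblast Ccl9 was not tested.

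By cluster, the fall was called in CF4, at 211 and 172 CPM in the 2 Control tissue libraries and 24.0, 37.8 and 28.2 CPM in YAP5SA (−2.61, SE 0.45, edgeR adjusted p 3.85e-06, no overlap). CF4 held no Control enriched cells, so the YAP5SA enriched value adds nothing to the tested change. The second Control value rests on 12 cells and 2 UMIs, and the call was lost without Control tissue-2 (edgeR adjusted p 0.621), YAP5SA tissue-1 (0.975) or YAP5SA tissue-2 (0.871) and with DESeq2 (1). In CF3 the Control tissue libraries stood at 261 and 22.8 CPM and the YAP5SA libraries at 12.4, 34.8 and 24.5 CPM, with overlap. CF4 also gave a call for Ackr3, the scavenger receptor for Cxcl12, as higher in YAP5SA (2.33, SE 0.58, edgeR adjusted p 0.00594). Its values, 15.5 and 515 CPM in Control and 126, 152 and 82.7 CPM in YAP5SA, overlapped, and the direction turned without Control tissue-2 (−1.11, edgeR adjusted p 0.599) and with DESeq2 (−0.076, adjusted p 1). The edgeR adjusted p was 1 without YAP5SA tissue-1, 1 without YAP5SA tissue-2 and 0.0578 without a filter on low counts. Of 14 members tested in CF4, 2 passed, beside 2.62% of its genes, with a median of 0.32 beside 0.05. Ackr3 was highest in CF2, at 353, 138 and 876 CPM and 684, 587 and 462 CPM, the first value resting on 3 cells.

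**Figure D4:**
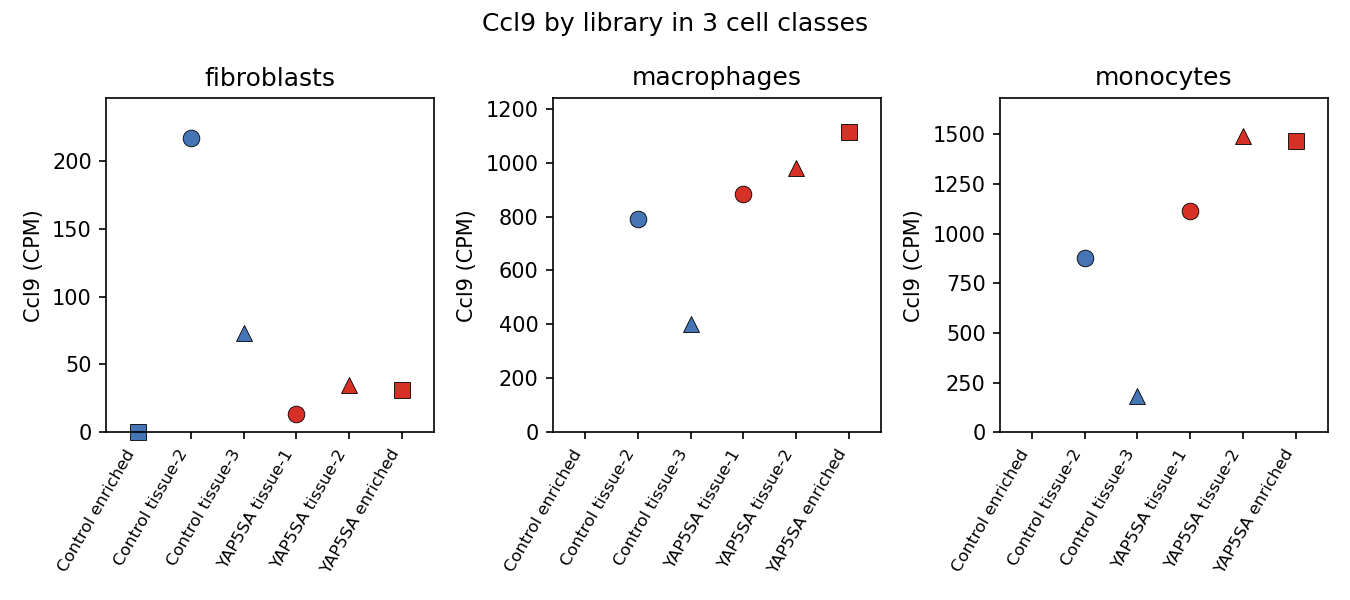
Ccl9 level (CPM) by library in fibroblasts, macrophages and monocytes; blue marks Control and red YAP5SA, and the Control enriched library had no macrophages or monocytes. Fibroblast values fell from 217 and 73.1 CPM in the Control tissue libraries to 13.2–34.9 CPM in YAP5SA, while macrophage values lay at 400–791 and 882–1112 CPM.

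Other ligands of fibroblasts did not pass. Ccl8, a ligand of the CC family, stood at 0, 60 and 18.3 CPM and 91.3, 137 and 127 CPM, without overlap (1.55, SE 0.58, edgeR adjusted p 0.19). It was the only 1 of 21 members whose YAP5SA libraries all lay above the Control libraries, beside 11.7% of all genes. Ccl2 stood at 112, 1416 and 500.2 CPM and 1582, 1316 and 1108 CPM (1.3, SE 0.87, adjusted p 1). Cxcl14 stood at 0, 772 and 544 CPM and 224, 492 and 276 CPM (−0.21, SE 0.78), and Cxcl2 at 0, 12.7 and 372 CPM and 8.78, 19.4 and 5.45 CPM (−3.69, SE 1.10, edgeR adjusted p 0.14). Control tissue-3 was the high library for Cxcl2, as it was for Cxcl1 at 223, 256 and 1240.1 CPM in Control. Its fibroblasts also carried the most macrophage marker RNA, 2195 CPM, beside 0 and 205 CPM in the other Control libraries and 274–468 CPM in YAP5SA. Of the Ccl17 UMIs of the Control libraries, 62 of 75 lay in fibroblasts, all of them in CF3 (25) and CF4 (37) of Control tissue-2.

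In macrophages, the class with the highest Ccl2, Ccl7 and Ccl12, no member passed edgeR's test out of 27, nor did any of the 11791 genes tested (0.0%). Of the members 6 reached an unadjusted p under 0.05 by edgeR, beside 1184 of 11791 genes. DESeq2 called 2 members, Ccl24 and Cxcl12, both lower, beside 0.831% of all genes. Without Control tissue-2, which leaves Control tissue-3 as the only Control library, 11 of 31 members were called by edgeR, beside 8.53% of all genes; the lone library is then assumed to vary like the others. The counts were 2 of 23 without YAP5SA tissue-1 (0.991% of genes) and 3 of 24 without YAP5SA tissue-2 (0.595%). The genotypes did not overlap in 12 members, 6 higher and 6 lower in YAP5SA, beside 25.3% and 11.4% of all genes. Their median change was −0.10, beside 0.05.

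The Ccr2 ligands were abundant in both genotypes. Ccl2 stood at 3362 and 2787 CPM in Control (tissue-2, tissue-3) and 4861, 2954 and 3292 CPM in YAP5SA. Ccl7 stood at 3234 and 1790.4 CPM and 3253, 2145 and 2266 CPM, and Ccl12 at 2151 and 1761 CPM and 4078, 2427 and 3752 CPM. Ccl12 alone of the trio did not overlap (0.57, SE 0.43, edgeR adjusted p 0.73). The Ccr1 ligand Ccl6 stood at 2359 and 883 CPM and 1817, 2047 and 2096 CPM, with overlap.

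Lower values in all YAP5SA libraries were found for the neutrophil attractants Cxcl2 and Cxcl1, for the CC ligand Ccl4, for the eosinophil attractant Ccl24, and for Cxcl12 and Ackr3. Cxcl2 stood at 1426 and 3056 CPM and 1019, 818 and 927 CPM (−1.49, SE 0.49, p 0.014, edgeR adjusted p 0.35). Cxcl1 stood at 236 and 931 CPM and 193, 156 and 153 CPM (−1.94, SE 0.67), and Ccl4 at 991 and 1086 CPM and 762, 452 and 451 CPM (−0.95, SE 0.41). For Cxcl1 and Ccl24 most of the gap lay in Control tissue-3. Ccl24 stood at 53.3 and 573 CPM and 22.1, 6.51 and 21.2 CPM (−4.63, SE 1.62, edgeR adjusted p 0.51, DESeq2 adjusted p 0.00519). Cxcl12 stood at 13.7 and 113 CPM and 6.36, 4.69 and 6.81 CPM (−3.27, SE 1.04, edgeR adjusted p 0.41, DESeq2 adjusted p 0.0284). The immediate early genes, which are induced during tissue dissociation, moved with them: the 14 summed to 8049 and 16866 CPM in Control macrophages and 2636–4076 CPM in YAP5SA, with none of 14 called by edgeR. Fibroblast markers summed to 659 and 5616 CPM in Control and 321–587 CPM in YAP5SA macrophages, and the parts of dissociation and of other cells' RNA were not tested.

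The promoters of Cxcl1 and Cxcl2, neighbours on chromosome 5 that were low together in YAP5SA macrophages, are shown with their matches to the NF-kB motif in capitals (250 bases before the RefSeq start, GRCm38.p6, + strand).
Cxcl1, chr5:90890995-90891244: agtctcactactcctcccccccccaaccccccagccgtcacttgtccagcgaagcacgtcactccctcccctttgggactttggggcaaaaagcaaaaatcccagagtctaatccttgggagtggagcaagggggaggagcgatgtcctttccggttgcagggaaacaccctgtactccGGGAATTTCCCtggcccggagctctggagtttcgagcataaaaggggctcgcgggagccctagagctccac
Cxcl2, chr5:90903649-90903898: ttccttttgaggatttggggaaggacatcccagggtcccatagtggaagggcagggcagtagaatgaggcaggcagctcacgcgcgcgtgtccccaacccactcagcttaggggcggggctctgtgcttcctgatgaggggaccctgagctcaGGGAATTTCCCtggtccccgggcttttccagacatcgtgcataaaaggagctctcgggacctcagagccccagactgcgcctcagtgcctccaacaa
Both carry the same run, GGGAATTTCCC, which matches on both strands. The motif was found in 7.25% of all 32851 windows and in 27.3% of the 33 windows of members, a description of the letters and not of binding.

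Among receptors of macrophages, Cx3cr1 stood at 247 and 155 CPM and 398, 291 and 312 CPM (0.61, SE 0.37, edgeR adjusted p 0.67), without overlap. Ccr1 stood at 277 and 71.6 CPM and 304, 296 and 286 CPM, also without overlap (0.59, SE 0.49, adjusted p 0.76). Ccr2 stood at 254 and 17.9 CPM and 145, 229 and 203 CPM. Its lowest library was Control tissue-3, and the groups overlapped. Ccl5 and Cxcr4 were low, with means of 18.3 and 25.2 CPM over the 5 libraries. By cluster, Ccr2 was concentrated in Mac1, at 383 and 0 CPM and 229, 475 and 441 CPM, and Ccl8 in Mac2, at 1343 and 39.8 CPM and 76.6, 229.6 and 175 CPM. The 1 cluster call was Cxcl12 in Mac4, at 4.87 and 273 CPM and 3.29, 5.42 and 10.8 CPM (−3.73, SE 0.83, edgeR adjusted p 0.00265), 1 of 22 members tested beside 1.68% of genes; it rests on 11 UMIs in 35 cells of Control tissue-3, without which the change was −0.07 (adjusted p 0.996). The call was also lost with DESeq2 (adjusted p 0.212), without the preparation term (edgeR adjusted p 0.608, with or without asking for at least 30 cells) and with unmerged names (edgeR adjusted p 0.737).

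**Figure D5:**
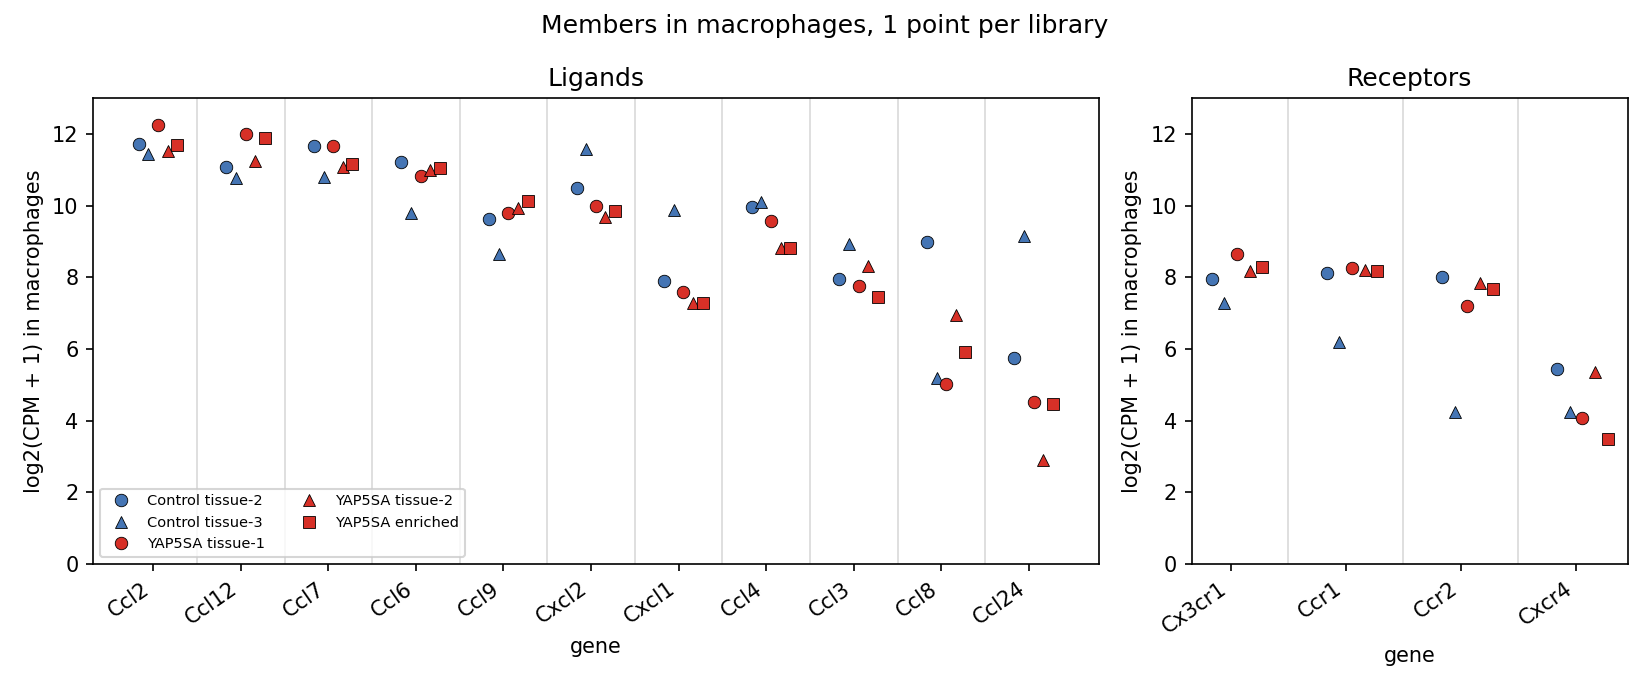
Level of 11 ligands and 4 receptors in macrophages as log2(CPM + 1), 1 point per library; blue marks Control and red YAP5SA. Ccl2 is the highest of the members plotted in 3 libraries, Cxcl2 in Control tissue-3 and Ccl12 in YAP5SA enriched, and for Cxcl1, Ccl24, Ccr1 and Ccr2 the 2 Control libraries lie far apart.

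Monocytes were fewer than macrophages, at 84 and 66 cells in Control and 132 to 280 in YAP5SA. None of 17 members passed edgeR's test (none called by DESeq2), as for all 3560 genes (0.0%). By edgeR 6 members reached an unadjusted p under 0.05, beside 283 of 3560 genes. Of the members 5 lay higher and 4 lower without overlap, beside 20.6% and 8.43% of genes. Ccr2 stood at 1142 and 234 CPM and 1289, 1217 and 1376 CPM, Ccr1 at 171 and 52.1 CPM and 316, 395 and 319.7 CPM. Ccl6 stood at 2328 and 443 CPM and 3192, 3791 and 3585 CPM. For these the YAP5SA libraries lay above both Control libraries, and Control tissue-3 was the lowest. Ccl17 stood at 74.7 and 26.1 CPM and 131, 793 and 159.8 CPM (2.99, SE 1.01, edgeR adjusted p 0.53), with YAP5SA tissue-2 far above the others. Cxcl2 stood at 1719 and 2879 CPM and 809.9, 1019 and 868 CPM, and Ccl4 at 651 and 808 CPM and 310.3, 196 and 148 CPM, both lower in every YAP5SA library without passing. The immediate early list in monocytes was lower as well, at 7762–17584 CPM in Control and 2894–4081 CPM in YAP5SA, and the fibroblast markers summed to 1569–17532 and 422–2413 CPM; neither part was tested. The monocyte markers summed to 2851 and 417 CPM in Control (tissue-2, tissue-3) and 3161–4146 CPM in YAP5SA, so their own identity markers were weak in Control tissue-3.

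In endothelial cells, none of 11 members passed edgeR's test (0 at an unadjusted p under 0.05, 0 by DESeq2), and none of 4 in endocardial cells (0 and 0), 2 in smooth muscle cells (1 and 0) and 9 in epicardial cells (3 and 0), where 0.0% of genes passed. Among all genes, an unadjusted p under 0.05 (edgeR) was reached by 543 of 5331, 107 of 1989, 48 of 981 and 108 of 1872 in these 4 classes, in that order. Cxcl12, which retains and guides cells bearing Cxcr4, stood at 649, 847 and 1057 CPM and 678, 452 and 609 CPM in endothelial cells (−0.63, SE 0.34, edgeR adjusted p 0.57). In smooth muscle cells it stood at 444, 507 and 622 CPM and 457, 181 and 272 CPM. The groups overlapped in both. Ackr3 stood at 342, 388 and 279 CPM and 357, 337 and 201 CPM in endocardial cells, with overlap. Epicardial Ccl12 stood at 102 and 63.4 CPM in Control (tissue-2, tissue-3) and 1232, 289 and 1182 CPM in YAP5SA (3.13, SE 0.73, p 0.0018, edgeR adjusted p 0.31), 1 of 4 epicardial members without overlap beside 12.4% of genes. The macrophage markers in epicardial cells were also higher without overlap, at 539–2095 CPM in Control and 2530.0–3585 CPM in YAP5SA, with 0 of 7 called; their part in epicardial Ccl12 was not tested.

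The sources of ligands and receptors differed between the genotypes together with the cell numbers. Of the Ccl2 UMIs of the 3 Control libraries 48.3% lay in fibroblasts and 36.2% in macrophages, and in YAP5SA 75.2% lay in macrophages. Its receptor Ccr2 lay in macrophages (49.1% and 66.0%) and monocytes (36.1% and 29.4%). For Cxcl12, endothelial cells held 68.5% of the Control UMIs and fibroblasts 50.8% of the YAP5SA UMIs, while the largest share of Ackr3 lay in cardiomyocytes in Control (42.2%) and in fibroblasts in YAP5SA (74.7%). Cx3cl1 lay in fibroblasts (60.8% and 48.8%) and cardiomyocytes (20.3% and 43.6%), and its receptor Cx3cr1 in macrophages (65.5% and 90.6%). For Ccl17, fibroblasts held 82.7% of 75 Control UMIs, and monocytes 53.2% and cardiomyocytes 38.0% of 859 YAP5SA UMIs. The share of Cxcl16 in macrophages was 32.7% and 75.7%; its receptor Cxcr6 lay in cardiomyocytes (93.1% and 84.7%), but those UMIs came from 4 libraries, with 0 in 2 Control libraries and 216 in Control tissue-2. Cxcr6 lies inside Fyco1 on the other strand in GENCODE vM21, and the strand handling of the counts is not stated in the sources used here, so its count is uncertain. Shares follow how many cells of each class a library held and are a description of these libraries.

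Of 71 other genes of the pathway (atypical chemokines and receptors, signalling proteins below the receptors, inducers), 69 were in the table. In cardiomyocytes 14 of 46 tested rose and 1 fell, with a median of 0.82. Among all genes 26.6% were called in either direction and 14.0% were called higher. The monocyte and macrophage growth factor Csf1 went from 17, 13.8 and 15.5 CPM to 586, 523 and 236 CPM (3.91, SE 0.42, edgeR adjusted p 0.00288), and the G protein subunit Gng12 rose by 3.04 (SE 0.43, edgeR adjusted p 0.00632). For neither did the genotypes overlap. The 1 gene that fell was the attractant Mif (−1.28, SE 0.37, edgeR adjusted p 0.0405), at 118, 282 and 135 CPM in Control and 123, 111 and 138 CPM in YAP5SA, with overlap. In fibroblasts 1 of 48 passed, the Mif receptor Cd74, which fell by 2.38 (SE 0.55, edgeR adjusted p 0.00287) although its values, 0, 19.0 and 86.8 CPM in Control and 4.39, 12.9 and 10.9 CPM in YAP5SA, overlapped. None of 60 passed in macrophages and none of 38 in monocytes by edgeR. An unadjusted p under 0.05 was reached by 4 and 2 of them, beside 1184 of 11791 and 283 of 3560 genes.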

How the data were processed

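Drop-seq libraries of dissociated hearts and of enriched cardiomyocytes were used, 3 per genotype, grouped by the labels. The deposited table held UMI counts per gene and cell, not normalized, and the authors' annotation gave each cell its library, 1 of 17 cluster names and the fraction of mitochondrial UMIs. Picard, STAR and Seurat 2.3.4 are named, per the submitters' processing notes; genome build and counting strand are not given in the sources used here. No cell was removed and doublets were not marked. In 4 libraries 767 names join several genes, and the libraries without such names are Control tissue-3 and YAP5SA enriched. The joined names were merged with their parts into 608 families, leaving 21295 features. Of these features, 1303 present under only 1 of the naming schemes were not tested, Ccl22 and Cxcr2 among them.

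Counts were summed per library and cluster, or per 8 classes (CM1 to CM3 with YAP5SAcm, CF1 to CF4, Mac1 to Mac4, every other cluster alone), with at least 10 cells per library and 2 libraries per genotype; Mac3 could not be fitted. Each fit used edgeR 4.0.16 in R 4.3.3 with TMM scaling, filterByExpr and the terms preparation and genotype, and Benjamini-Hochberg adjustment over all genes at 0.05. In macrophages, monocytes and epicardial cells the preparation term takes up the YAP5SA enriched library, which then adds nothing to the genotype effect. The same holds for every cluster of fibroblasts and macrophages, and for the difference between these 2 classes. All these fits lack the Control enriched library. The difference between fibroblasts and macrophages was the class by genotype term with the library as a block. Standard errors are the log2 change over the square root of F. The code was tested on simulated data. Named genes are members called in any fit, the 3 ligands and 2 receptors with the highest mean CPM per class, known ligand and receptor pairs, Ccl8 and Ccl24, and up to 3 called pathway genes per class; 1 member and 1 pathway gene enter the counts but are not reported by name here. Members, lists and tests were chosen with earlier results of these data known. Alternatives were RLE factors, library totals, DESeq2 1.42.0, no filter, no preparation term, the tissue libraries alone, at least 30 cells, unmerged names, and leaving out each library. Promoter windows came from the RefSeq table (GRCm38.p6).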

Additional observations from a re-analysis of the deposited data

Results flagged for a closer look

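The effect of the genotype on Ccl9, a Ccr1 ligand, differed between 2 cell classes by a test of the difference itself. In separate fits the log2 change between YAP5SA and Control was −2.27 in fibroblasts and 0.50 in macrophages. The difference had its own fit, on the 5 libraries that held both classes, and was −3.22 (SE 0.42, edgeR's quasi-likelihood test, adjusted p 0.0207). That fit leaves out Control enriched, which enters the −2.27, so −3.22 is not the gap between the 2 separate values. Its preparation term takes up YAP5SA enriched, which then adds nothing to the difference. The call within fibroblasts held in 3 of 15 alternatives and was lost without Control enriched. The difference was negative under all 12 alternatives that could be run, from −3.89 to −2.63. It missed the threshold in 1 of them, without YAP5SA tissue-1 (edgeR adjusted p 0.124). These settings are not all distinct. Leaving out Control enriched, which held no macrophages, and asking for at least 30 cells both repeated the main fit. The tissue libraries alone and leaving out YAP5SA enriched kept the same libraries.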

How the results depend on the processing

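The count of called members moved most with single libraries. Beside 6 class calls, 6 cluster calls and 1 call for the difference between fibroblasts and macrophages, leaving out 1 library gave 2 to 46 class calls, 0 to 70 cluster calls and 0 to 9 difference calls. The highest counts came without Control tissue-2 for classes and clusters (46 of 132 and 70 of 219 member tests, beside 14.6% and 6.68% of all gene tests) and without Control tissue-3 for the difference (9 of 32, beside 2.57%), and the lowest cluster and difference counts without YAP5SA tissue-2 and YAP5SA tissue-1. Without a filter on low counts there were 18 class, 28 cluster and 5 difference calls, of 268, 524 and 40 member tests, beside 3.28%, 0.975% and 0.533% of all gene tests. The tissue libraries alone gave 2 class and 2 cluster calls (beside 3.98% and 0.376% of all gene tests), unmerged names 3 class calls (5.08%), and at least 30 cells 3 cluster calls (0.659%). Dropping the preparation term and asking for at least 30 cells, chosen after seeing the data, gave 2 cluster calls (0.278%). Ackr3 in CF4 turned direction with DESeq2 (−0.076) and without Control tissue-2 (−1.11); leaving out 1 library gave −1.11 to 3.15, the highest without Control tissue-3; the cause was not tested. Among all alternatives Ccl17 in cardiomyocytes kept its call in 15 of 15, Ccl9 in cardiomyocytes in 10 of 15, Cx3cl1 in 9 of 15, Cx3cr1 in 8 of 15 and Ccl2 in 6 of 16. Ccl9 in fibroblasts kept it in 3 of 15. Among cluster calls, Ccl17, Ccl6 and Ccl2 in YAP5SAcm kept theirs in 10 of 13, 10 of 12 and 7 of 13, Ccl9 and Ackr3 in CF4 in 9 of 13 and 8 of 13, and Cxcl12 in Mac4 in 6 of 11. Where 2 settings kept the same libraries they repeated 1 fit, so the settings behind these tallies are not all distinct. No paired analysis was possible, because the labels do not state any pairing of Control with YAP5SA libraries. The YAP5SA tissue libraries also carry other numbers in the table than in the labels, so no replicate block was set. Depth limits the low genes: in Control cardiomyocytes 3 counts correspond to 1.04, 0.881 and 0.410 CPM.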

Other observations

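Cxcr6, the receptor of Cxcl16, had an uneven pattern in cardiomyocytes. It was counted at 0, 63.5 and 0 CPM in the Control enriched, tissue-2 and tissue-3 libraries and at 25.5, 50 and 34.5 CPM in the YAP5SA libraries. Fyco1, which holds it on the other strand, stood at 173, 56.7 and 129 CPM in Control and 97.2, 131 and 77.6 CPM in YAP5SA, and the T or NK cell markers summed to 0–3.23 and 0–1.59 CPM. No cause of the 2 empty Control libraries was tested.

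The genes beside the Ccl22, Cx3cl1 and Ccl17 group were looked up after the values of the members had been seen. In cardiomyocytes, Rspry1 (log2 change 0.24), Arl2bp (−0.31) and Ciapin1 (0.50) did not pass edgeR's quasi-likelihood test, and Coq9 fell by 2.62 (adjusted p 0.0117) and Polr2c by 1.12 (adjusted p 0.0254), while Ccl17 and Cx3cl1 rose.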
